A study of Mus musculus with 42 samples.

Results

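The stromal growth factors described here are 9 genes, Fgf1, Fgf2, Fgf7, Fgf9, Fgf10, Fgf18, Hgf, Igf1 and Igf2, taken by name from the 17647 genes that had a row in a stromal table. RNA sequencing was performed on sorted cells and organoids of the mouse colon, deposited under 42 library labels that hold 40 distinct libraries. In GWTT control mice (Gli1-CreERT2;Rosa26-tdTomato), GS4T mice (Gli1-CreERT2;Smad4 fl/fl;Rosa26-tdTomato) and GA3T mice (Gli1-CreERT2;Alk3 fl/fl;Rosa26-tdTomato), tdTomato+ stromal cells were sorted from proximal and from distal colon, with 2 libraries per genotype and segment and 12 in all. Muc2-mCherry+ goblet cells came from the matching GWTM2, GS4M2 and GA3M2 mice, which carry Muc2-mCherry in place of the tdTomato reporter, again with 2 libraries per genotype and segment. Wild-type colonic organoids were cultured with 10 nM IL-1 (IL-1a and IL-1b), 10 nM IL-17A or neither for 12 or 72 h, with 3 labelled libraries per group. The reads of control replicate 2 at 12 h are those of control replicate 1 at 72 h, and the reads of replicate 4 are the same at both times (100% of genes with at least 20 reads in sum equal in each pair), so the organoid labels hold 16 distinct libraries and the culture time of these 2 controls is not known. All mice whose cells were sorted, controls included, carried Gli1-CreERT2, received tamoxifen on 5 consecutive days and were examined at day 30; the methods give ages of 2 to 4 months and both sexes. The Gli1 promoter restricts the deletion to Gli1 lineage cells, so the deletion is not directed to goblet cells. No label states how many mice a library was made from, so p-values measure the spread between these libraries, which may be technical in part. The labels also do not state whether proximal and distal libraries come from the same mice, and the segments were treated as separate samples.

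Fibroblasts and other mesenchymal cells of the gut wall secrete growth factors that act on the overlying epithelium and on the stroma itself. Fibroblast growth factors (FGFs) bind FGF receptors together with heparan sulfate, hepatocyte growth factor (Hgf) binds the Met receptor after proteolytic activation, and insulin-like growth factors (Igf1, Igf2) bind Igf1r under the control of binding proteins (Igfbps) and the proteases that cut them. Bone morphogenetic proteins (BMPs) signal through type I receptors such as Alk3, encoded by Bmpr1a, and the activated SMAD proteins act with Smad4, which transforming growth factor b signaling also uses.

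SMAD proteins bind short DNA elements, so the 250 bases before the RefSeq start sites (GRCm38.p6) were searched on both strands for the SMAD box CAGAC and for the BMP element GGCGCC. Windows could be read for 8 of the 9 members, 12 windows in all, since Hgf and Igf2 have several start sites. The SMAD box was present in 9 of the 12 windows and in 42.2% of all 32851 promoters of that length, and the BMP element in 2 of the 12 (Fgf2 and Igf1) and in 9.59% of all promoters. Igf2 and Hgf, with several windows, count more than once among the 9. The windows of Igf1, the member with the largest increase described below, and of Fgf10 held no SMAD box. Nor did 1 of the 4 windows of Igf2. The 3 windows printed here belong to the members with the largest decrease, the largest segment difference and one of the largest increases described below, and capitals mark the SMAD box or its reverse complement. The Fgf18 window lies at chr11:33147401-33147650 on the minus strand, the Hgf window at chr5:16553245-16553494 on the plus strand, and the Igf2 window, before the start site nearest to the 3' end of the 4 it has, at chr7:142657497-142657746 on the minus strand; which Igf2 start site these cells use is not known from gene counts.
Fgf18: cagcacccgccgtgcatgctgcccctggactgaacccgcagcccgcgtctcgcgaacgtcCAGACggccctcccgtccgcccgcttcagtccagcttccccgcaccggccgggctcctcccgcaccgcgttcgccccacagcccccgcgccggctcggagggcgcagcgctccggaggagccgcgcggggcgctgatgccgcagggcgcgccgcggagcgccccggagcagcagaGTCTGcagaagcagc
Hgf: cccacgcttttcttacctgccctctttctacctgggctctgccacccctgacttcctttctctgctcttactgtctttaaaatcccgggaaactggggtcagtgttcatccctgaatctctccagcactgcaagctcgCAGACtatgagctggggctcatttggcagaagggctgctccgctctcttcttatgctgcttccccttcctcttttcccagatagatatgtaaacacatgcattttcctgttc
Igf2: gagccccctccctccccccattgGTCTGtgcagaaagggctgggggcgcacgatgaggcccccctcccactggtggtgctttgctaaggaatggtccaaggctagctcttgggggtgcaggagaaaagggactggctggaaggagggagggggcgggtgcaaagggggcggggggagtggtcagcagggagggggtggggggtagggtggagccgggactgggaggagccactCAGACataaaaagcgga
The windows of Fgf18 and Igf2 each held 2 SMAD boxes, starting 190 and 15 bases (Fgf18) and 227 and 17 bases (Igf2) before the start site, and that of Hgf held 1, at 112 bases. These letters are common in promoters, and a match is not a binding site.

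The stromal libraries held 14222902 to 23686940 reads on genes (median 17404903). Pdgfra and Col1a1, markers of fibroblasts, were measured in all 12, at 924 to 2155 and 6139 to 14320 CPM (reads scaled to the library's total on genes). Smad4 in normalized counts fell in GS4T proximal cells (1604 and 1673 in controls, 705 and 835 in GS4T, limma adjusted p = 0.0101). In distal cells it was at 1781 and 1703 in controls and 680 and 1171 in GS4T (log2 fold change -0.96, adjusted p = 0.0424), which stayed under the required size of 1. Bmpr1a was at 105 to 125 CPM in the 4 GA3T libraries against 166 to 189 in the 4 controls; a gene count also holds reads from exons that remain after a deletion. Gli1 was at 1.40 CPM in GS4T proximal replicate 2 and 1.98 CPM in GA3T proximal replicate 2, against 38.0 to 99.6 in the other 10 libraries, so both stand apart by the gene that drives the lineage label. Markers of other cells moved with the genotype. The summed level of 6 epithelial markers was 11.1 to 419 CPM in control, 569 to 1279 CPM in GS4T and 346 to 820 CPM in GA3T libraries. For 8 macrophage markers the ranges were 183 to 703, 881 to 2032 and 712 to 1436 CPM, and for 5 neutrophil markers 2.08 to 6.49, 39.2 to 165 and 10.8 to 37.2 CPM. Of the genes tested from these lists, 1 of 6, 6 of 8 and 3 of 4 rose in GS4T proximal cells and 6 of 6, 4 of 8 and 5 of 5 in GS4T distal cells. The 6 markers of B and plasma cells summed to 1607 to 4978 CPM in control, 870 to 1398 CPM in GS4T and 1067 to 2407 CPM in GA3T libraries, and in GS4T cells 1 of 5 tested rose and 1 fell proximally and 1 of 6 rose and 4 fell distally. The gene that rose was Sdc1 in both segments, at 41.0 to 152 CPM in control and 467 to 949 CPM in GS4T libraries, which the sums include. The 6 smooth muscle markers summed to 404 to 1137, 1036 to 1702 and 846 to 1280 CPM, and 2 of 6 rose in GS4T proximal cells and 1 rose and 1 fell in GS4T distal cells. None of the genes tested from any of these lists was called in GA3T cells. The summed level of 9 fibroblast markers was 42227 to 51734 CPM in control, 46303 to 57210 in GS4T and 48507 to 58660 in GA3T libraries. In GS4T cells none of the 9 was called higher, and 1 was called lower proximally and 2 distally. None was called in GA3T cells. The part of these other cells in the results below was not tested, and in bulk RNA fewer cells of a type and less RNA per cell cannot be told apart.

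All 9 growth factor genes were expressed in control stroma. Per kilobase of exon, the highest mean level in GWTT proximal cells was that of Igf1, at 28.04 ± 0.51 CPM per kb (SD, n = 2), and the lowest that of Igf2, at 2.91 ± 0.40 CPM per kb. Between them came Fgf7 (14.8), Fgf2 (11.02), Fgf10 (10.3), Hgf (9.26), Fgf18 (5.66), Fgf9 (3.5) and Fgf1 (3.44); the libraries of neighbors overlapped for Fgf2 and Fgf10, Fgf10 and Hgf, and Fgf9 and Fgf1. In GWTT distal cells Hgf led with 24.4 ± 3.02 CPM per kb, followed by Fgf10 (18.3), Fgf7 (17.3) and Igf1 (16.5), and Fgf1 was lowest at 2.0 ± 0.35; there the libraries of neighbors overlapped for Fgf10 and Fgf7, Fgf7 and Igf1, Igf2 and Fgf18, and Fgf18 and Fgf1. In all 4 groups of knockout cells Igf1 was the highest of the 9, at mean levels between 65.6 and 81.3 CPM per kb, and its libraries did not overlap those of the next gene in any of them.

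The control cells answer how the stroma of the 2 colon segments differs before any deletion. Hgf, the ligand of Met, was at 62.8 and 70.4 CPM in the proximal and at 160 and 191 CPM in the distal GWTT libraries. It was lower in the proximal segment by a log2 difference of -1.39 (SE 0.12, limma adjusted p = 0.00910), and it was the 1 member of 9 to pass the test, for which both an adjusted p under 0.05 and a log2 size of 1 or more were required; 2.31% of the 15413 genes tested passed. Fgf10, a mesenchymal ligand for the epithelial form of Fgfr2, had 41.1 and 53.3 CPM in proximal and 81.5 and 87.0 CPM in distal cells, a log2 difference of -0.85 (adjusted p = 0.0446) that stayed under the required size. Markers of other cells differed between the same libraries: the smooth muscle markers summed to 404 to 521 CPM proximally and 1078 to 1137 CPM distally, and the macrophage markers to 183 to 295 and 601 to 703 CPM. Their part in the segment differences was not tested.

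In the opposite direction, Igf1 was at 274 and 281 CPM proximally and 141 and 186 CPM distally (log2 difference 0.78, adjusted p = 0.0542). Fgf18 was at 5.44 and 8.01 against 2.33 and 4.11 CPM (1.08, adjusted p = 0.261), and Fgf1 at 18.04 and 19.5 against 9.60 and 12.3 CPM (0.79, adjusted p = 0.109). None of these 3 passed the test. Fgf9 was at 13.2 and 19.3 CPM proximally and 26.7 and 27 CPM distally (-0.75, adjusted p = 0.146), and Fgf2, Fgf7 and Igf2 differed by at most 0.22 in size on the log2 scale. The libraries of the segments did not overlap for 7 of the 9 members (all but Fgf2 and Igf2), as for 48.4% of all genes tested. With any 1 of the 4 libraries left out, the Hgf difference lay between -1.52 and -1.27 but its adjusted p rose to 0.0829 to 0.164, so that the call needed all 4 libraries. In such a fit an arm of 1 library is assumed to vary like the 2 libraries of the other arm. The gene's own spread comes from those 2, and limma draws it toward a trend over all genes tested.

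**Figure D1:**
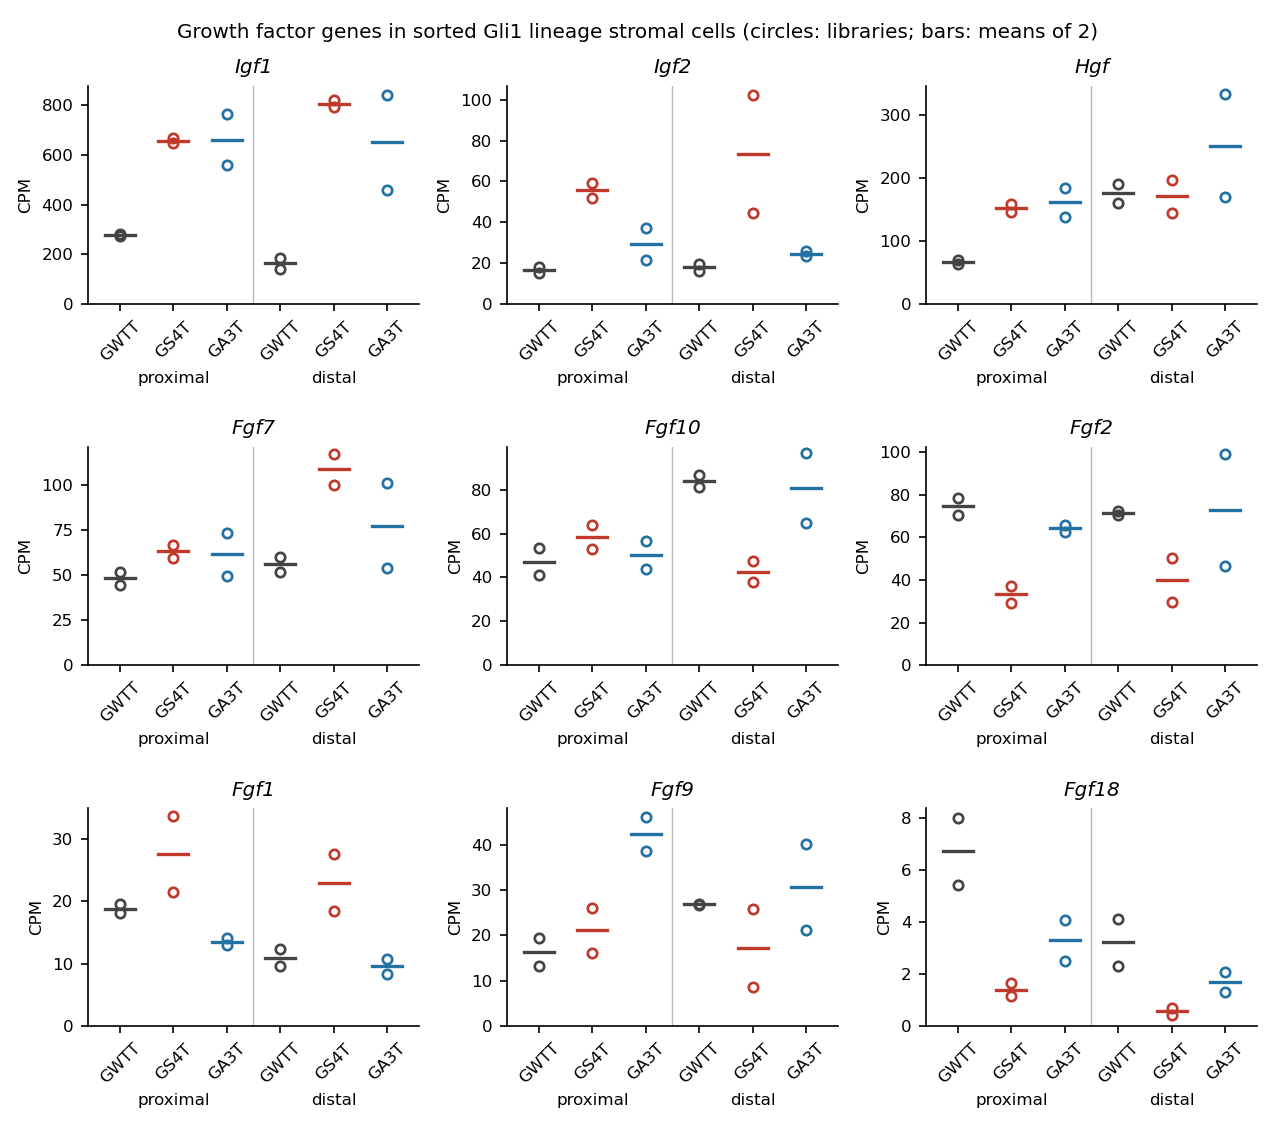
Level of each growth factor gene in CPM (linear axes from 0) in the 12 libraries of sorted Gli1 lineage stromal cells, by genotype and colon segment; circles are libraries and bars the means of 2. Igf1 lies at 141 to 281 CPM in the 4 control libraries and at 458 to 841 CPM in the 8 knockout libraries.

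Smad4 knockout was compared with the control within each segment to ask which growth factors of the stroma depend on it. In GS4T proximal cells Igf1, Igf2 and Hgf rose and Fgf2 and Fgf18 fell, 5 of 9 members, where 9.61% of the 15319 genes tested were called (5.25% higher and 4.36% lower). In GS4T distal cells Igf1, Igf2 and Fgf1 rose and Fgf18 fell, 4 of 9 members, where 14% of the 15262 genes tested were called (7.88% higher and 6.08% lower). Libraries of knockout and control did not overlap for 7 members proximally and 8 distally, as for 65.4% and 67.5% of all genes tested. The median log2 fold change of the 9 members was 0.39 proximally and -0.03 distally, beside 0.02 and 0.00 for all genes tested.

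Igf1, the main circulating and tissue mediator of growth hormone action, is known to be made by fibroblasts and also by macrophages. In proximal cells its normalized counts were 4757 and 4549 in control and 10534 and 11404 in GS4T libraries, a log2 fold change of 1.24 (SE 0.11, adjusted p = 0.00669). In distal cells they were 2312 and 3024 in control and 12985 and 13668 in GS4T libraries, a log2 fold change of 2.33 (SE 0.16, adjusted p = 0.00116). In both segments each GS4T library lay above both controls by more than the spread within either group. The control level was lower distally and the GS4T level higher, so that the GS4T libraries reached 792 and 818 CPM in the distal and 647 and 667 CPM in the proximal segment.

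Igf2, an imprinted fetal growth factor, rose from 309 and 249 to 842 and 1017 normalized counts in proximal cells (log2 fold change 1.73, SE 0.18, adjusted p = 0.00812). In distal cells it rose from 269 and 318 to 732 and 1710 (1.93, SE 0.38, adjusted p = 0.0201), and the 2 GS4T distal libraries lay far apart. Exons of Igf2 share bases with Igf2os on the opposite strand and with Gm49394, and since the strand setting of the counting is not given, their reads cannot be separated. H19, the noncoding RNA of the same imprinted region of chromosome 7, was at 0.18 to 0.55 CPM in the 4 control libraries (3 to 9 reads each) and at 4.96 to 34.0 CPM in the 4 GS4T libraries. It rose in both segments, by 3.11 (SE 0.43, adjusted p = 0.0154) proximally and 6.42 (SE 0.48, adjusted p = 0.00151) distally on the log2 scale, values that depend on the pseudocount because the controls are so low. In GA3T libraries it was at 1.14 to 17.3 CPM and did not pass (3.04, adjusted p = 0.252, and 2.77, adjusted p = 0.197).

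Hgf rose in the proximal segment. Its normalized counts were 1062 and 1167 in control and 2579 and 2500 in GS4T proximal libraries (1.19, SE 0.10, adjusted p = 0.00627). In distal cells, where the control level was already higher, they were 2623 and 3095 in control and 3230 and 2423 in GS4T libraries, with overlap (-0.03, SE 0.17, adjusted p = 0.927). The GS4T proximal libraries, at 146 and 158 CPM, lay near the level of distal controls, at 160 and 191 CPM. The smooth muscle markers had a like pattern, with 404 to 521 CPM in control and 1036 to 1355 CPM in GS4T proximal libraries and 1078 to 1137 and 1055 to 1702 CPM distally, and their part in the Hgf result was not tested.

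Fgf18, a ligand that favors Fgfr3, had the largest decrease of the 9. It was at 135 and 90.2 normalized counts in control and 26.7 and 19.9 in GS4T proximal libraries (-2.21, SE 0.40, adjusted p = 0.0278), and at 38.1 and 66.8 in control and 7.09 and 11.7 in GS4T distal libraries (-2.34, SE 0.57, adjusted p = 0.0356). These are low counts, and the groups did not overlap in either segment. Fgf2, basic FGF, which acts on mesenchymal cells, fell in proximal cells from 1196 and 1305 to 477 and 634 (-1.18, SE 0.17, adjusted p = 0.0157). In distal cells it was at 1157 and 1174 in control and 827 and 498 in GS4T libraries, which did not pass the test (-0.86, SE 0.24, adjusted p = 0.0512). Exons of Fgf2 overlap Nudt6 on the opposite strand and Gm43439, whose reads cannot be separated from its own. The same limit holds for Hgf with Gm43489 on the same strand and for Fgf10 with Gm16263 on the opposite strand.

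The ligands that act on the epithelium through Fgfr2 moved in opposite directions in distal cells. Fgf7, keratinocyte growth factor, was at 852 and 979 normalized counts in control and 1639 and 1966 in GS4T distal libraries (0.97, SE 0.14, adjusted p = 0.00787). Fgf10 was at 1427 and 1323 in control and 778 and 631 in GS4T distal libraries (-0.97, SE 0.14, adjusted p = 0.00826). Both had an adjusted p under 0.05 and lay just under the required fold change of 1, and their groups did not overlap. In proximal cells Fgf7 differed by 0.39 on the log2 scale (adjusted p = 0.129) and Fgf10 by 0.31 (adjusted p = 0.315). Fgf1, acidic FGF, which binds all FGF receptors, rose in distal cells from 157 and 199 to 451 and 308 (1.07, SE 0.25, adjusted p = 0.0334) and had 0.51 (adjusted p = 0.237) proximally. Fgf9, which acts on mesenchymal receptor forms, had 0.36 (adjusted p = 0.437) proximally and -0.83 (adjusted p = 0.262) distally, with the 2 GS4T distal libraries at 425 and 143.

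Leaving out single libraries changed these calls, again with a lone library assumed to vary like the other pair. The number of all genes called moved in these fits too, as given at the end. The counts of members passing are therefore not read as a result about the members. Without GS4T proximal replicate 1, none of the 5 proximal members passed (adjusted p 0.0561 to 0.124, 119 genes called in all), with the log2 fold changes between -2.41 and 1.87. Without GS4T proximal replicate 2, the library with little Gli1, 3 members passed and Igf2 (1.6, adjusted p = 0.0644) and Fgf18 (-2.01, adjusted p = 0.138) did not. Without GWTT proximal replicate 1, Fgf18 was lost (-1.92, adjusted p = 0.0613). In distal cells 1 member passed without GWTT distal replicate 1, Igf1, with Igf2, Fgf1 and Fgf18 at adjusted p of 0.0834, 0.164 and 0.0981. Without GWTT distal replicate 2, Igf1 passed together with Fgf7 (1.07) and Fgf10 (-1.03), and Igf2, Fgf1 and Fgf18 were at adjusted p of 0.0656, 0.0877 and 0.213. Without GS4T distal replicate 1, Igf1, Igf2, Fgf7, Fgf10, Fgf2 (-1.23) and Fgf9 (-1.61) passed, and Fgf1 (0.79, adjusted p = 0.114) and Fgf18 (-2.02, adjusted p = 0.0940) did not. Directions of the called members were the same in each of these fits.

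**Figure D2:**
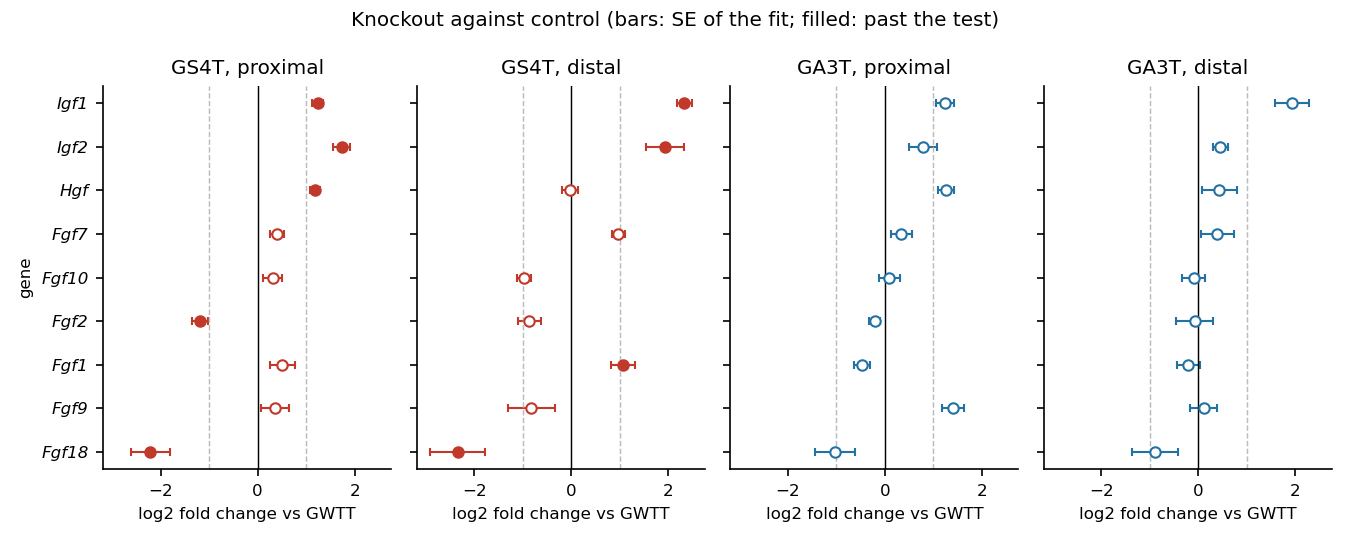
Log2 fold change of each growth factor gene against the GWTT control, from the limma fit of each table, with the standard error as bars; filled points passed the test and dashed lines mark a log2 fold change of 1 in either direction. Igf1 lies at 1.24 and 2.33 in GS4T and at 1.24 and 1.93 in GA3T cells, and Fgf18 lies at -0.89 or lower in all 4 panels, with filled points in GS4T alone.

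Alk3 knockout asks the same of the BMP receptor. By limma 0 of the 9 members passed in GA3T proximal cells, where 0.358% of 15346 genes were called, and 0 in GA3T distal cells, where 0% of 15414 genes were called. At an unadjusted p under 0.05 and the same fold change, 3 members (9.46% of all genes) and 1 member (7.77%) passed. With edgeR 0 members and 0% of all genes passed in either segment. With DESeq2 3 members passed proximally (Igf1, Hgf and Fgf9, adjusted p up to 5.72e-05), where 6.31% of all genes were called, and 1 distally (Igf1, adjusted p = 6.15e-07), where 5.03% were. Libraries did not overlap for 7 members proximally and 3 distally, against 56.4% and 54.3% of all genes tested. The GA3T comparisons use the same control libraries as those of GS4T, so the values are given side by side and were not correlated.

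Igf1 was at 5005 and 4782 normalized counts in control and 9959 and 13394 in GA3T proximal libraries (1.24, SE 0.18, adjusted p = 0.0728). In distal cells it was at 2637 and 3442 in control and 8160 and 16221 in GA3T libraries (1.93, SE 0.35, adjusted p = 0.116). All 4 GA3T libraries lay above the controls of their segment, but their spread was wide. Hgf was at 1117 and 1227 in control and 2470 and 3238 in GA3T proximal libraries (1.27, SE 0.16, adjusted p = 0.0682), and Fgf9 at 235 and 337 in control and 692 and 811 (1.41, SE 0.22, adjusted p = 0.0756). In distal cells Hgf was at 2992 and 3522 in control and 3009 and 6402 in GA3T libraries (0.44, adjusted p = 0.549), and Fgf9 differed by 0.11 (adjusted p = 0.858).

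Igf2 was at 325 and 262 in control and 390 and 649 in GA3T proximal libraries (0.78, adjusted p = 0.219), and had 0.45 (adjusted p = 0.234) distally. Fgf18 had log2 fold changes of -1.02 (adjusted p = 0.240) proximally and -0.89 (adjusted p = 0.379) distally, with every GA3T library under both controls of its segment. Fgf2 had -0.21 and -0.08, where GS4T had -1.18 and -0.86, and Fgf1 had -0.47 and -0.20, where GS4T had 0.51 and 1.07; no test of the difference between knockouts was run. Fgf7 (0.34 and 0.39) and Fgf10 (0.10 and -0.09) had adjusted p of at least 0.419. Without GA3T proximal replicate 1, Igf1 (1.45, adjusted p = 0.0437) and Hgf (1.47, adjusted p = 0.0452) passed, and without GA3T distal replicate 1, Igf1 passed (2.43, adjusted p = 0.01). Without GA3T proximal replicate 2, the library with little Gli1, no member passed, and Igf1 had 1.03 (adjusted p = 0.133). In these fits the gene's own spread comes from the 2 controls, drawn toward the trend over all genes. The spread between the GA3T libraries does not enter. The distal Hgf value rested on single libraries, at 0.98 without GA3T distal replicate 1 and -0.11 without replicate 2.

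The difference of the knockout effect between segments was fitted as an interaction, with the libraries of both segments taken as separate samples. No member passed for Smad4 knockout, where 0.195% of 14867 genes passed, or for Alk3 knockout, where 0% of 14973 genes passed; at an unadjusted p under 0.05 and the same size 3 members (5.06% of genes) and 1 member (3.13%) did, and edgeR called no member in either. For Smad4 the log2 fold change of Hgf was 1.22 higher proximally (SE 0.22, adjusted p = 0.1), that of Fgf10 1.2803 higher (SE 0.26, adjusted p = 0.123), and that of Igf1 lower, with a difference of -1.10 (SE 0.20, adjusted p = 0.1). For Alk3 the largest difference was that of Fgf9, at 1.299 (SE 0.40, adjusted p = 0.575). At the adjusted threshold no difference of the effect between segments was therefore shown for any growth factor gene.

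Other genes of the same pathways were counted in lists, to be read beside the 9.61% of all genes called in GS4T proximal and the 14% called in GS4T distal cells. Of 11 tested IGF binding proteins and the proteases and inhibitors that act on them, 5 rose and 3 fell in GS4T proximal cells, with a median log2 fold change of 1.08, and 4 rose and 1 fell distally, with a median of 0.99. Igfbp5, a binding protein held in the extracellular matrix, was at 678 to 937 CPM in control, 4573 to 6608 CPM in GS4T and 1821 to 4578 CPM in GA3T libraries; it rose by 2.86 (SE 0.26, adjusted p = 0.00669) in proximal and by 2.98 (SE 0.21, adjusted p = 0.00139) in distal GS4T cells. Pappa2, a protease that cuts Igfbp5 and Igfbp3, rose by 2.44 (adjusted p = 0.00582) and 3.51 (adjusted p = 0.00234), from 5.07 to 10.1 CPM in control to 44.2 to 80.8 CPM in GS4T libraries. Stc1, a stanniocalcin, a family that inhibits such proteases, rose by 3.63 (adjusted p = 0.0141) and 4.24 (adjusted p = 0.00377). Its level was 0.79 to 2.38 CPM in control and 9.79 to 71.0 CPM in GS4T libraries. Stc2, of the same family, went the other way. It was at 238 and 114 CPM in control and 52.6 and 58.9 CPM in GS4T proximal libraries. Distally Stc2 was at 53.6 and 68.3 CPM in control and 19.3 and 26.0 CPM in GS4T libraries. Igf1, Igfbp5 and Pappa2 were each higher in every GS4T library than in any of the 4 controls. The share of all genes that separate in this way was not counted. Igfbp5 and Pappa2 are named here for their large changes in these same libraries. Of 6 IGF receptors and adaptors none rose and 2 fell in each segment, Irs1, a docking protein of the receptor (-1.11 and -1.33), and Insrr, a receptor of the insulin family (-2.87 and -2.95, at under 10 CPM). In GA3T cells none of the 10 or 11 tested binding genes passed (medians 0.69 and 0.89), where 0.358% and 0% of all genes were called.

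**Figure D3:**
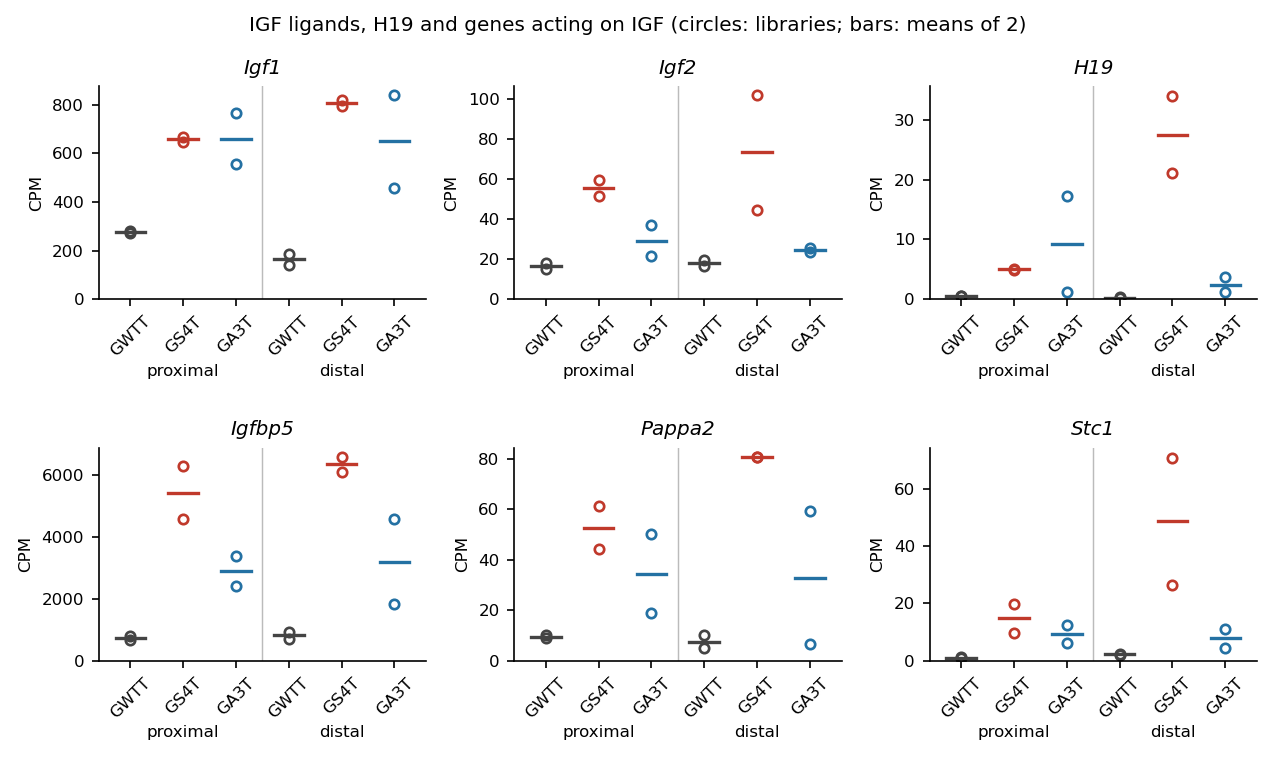
Levels in CPM (linear axes from 0) of Igf1, Igf2, H19 and the genes Igfbp5, Pappa2 and Stc1 in the 12 stromal libraries, by genotype and segment; circles are libraries and bars the means of 2. Igfbp5 lies at 678 to 937 CPM in control and 4573 to 6608 CPM in GS4T libraries, with GA3T between, and H19 stays under 0.56 CPM in the controls.

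For Hgf, 9 genes of the list of its receptor, activators and inhibitors were tested, of which 2 rose and none fell in GS4T proximal cells and 5 rose and none fell in distal cells (medians 1.97 and 1.497). Met, the receptor, rose by 1.08 (SE 0.22, adjusted p = 0.0374) and Plau, urokinase, by 1.97 (SE 0.38, adjusted p = 0.0313) proximally. Spint1 and St14, an inhibitor and a protease best known from epithelia, rose distally by 3.496 (adjusted p = 0.00173) and 1.83 (adjusted p = 0.0178), and Hgfac, the Hgf activator, by 2.45 (adjusted p = 0.0358). Spint1 was at 2.74 to 13.1 CPM in control and 34.4 to 42.1 CPM in GS4T libraries, the same libraries in which the epithelial markers were higher, and that part of the change was not tested. In control cells Plau was lower proximally by -1.77 (adjusted p = 0.00716), the direction that Hgf also had.

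Among FGF partners, none of the 5 receptors tested passed in proximal cells, and in distal cells 2 of 6 fell, Fgfr4 (-1.26, adjusted p = 0.0250) and the low co-receptor Kl (-3.62, adjusted p = 0.0177). Of 21 genes of FGF binding and heparan sulfate, 4 rose and 1 fell proximally and 5 rose and 3 fell distally. Gpc3, a glypican, fell by -3.47 (SE 0.10, adjusted p = 0.00208) and -2.33 (SE 0.13, adjusted p = 0.000862), from 86.7 to 353 CPM in control to 17.6 to 30.8 CPM in GS4T libraries. Sdc1, a syndecan that epithelial and plasma cells carry, rose by 3.16 (adjusted p = 0.00715) and 2.55 (adjusted p = 0.000862). No other gene tested from the B and plasma cell list was called higher. Of 14 feedback inhibitors and targets of FGF signaling, Etv4, a transcription factor induced by FGF, rose in both segments (3.42, adjusted p = 0.00669, and 3.17, adjusted p = 0.00547), and Spry1, an inhibitor, fell distally (-1.61, adjusted p = 0.00104); in controls Spry1 and Spry4 were lower proximally, by -1.43 and -1.13. Of 5 other FGF ligands tested, Fgf13 fell proximally (-4.29, adjusted p = 0.0118) and Fgf12 distally (-3.37, adjusted p = 0.00244), both of them intracellular members of the family. In GA3T cells 1 gene of these FGF lists passed, Gpc1 in the proximal segment (1.73, SE 0.14, adjusted p = 0.0489), where 0.358% of all genes were called.

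Across cell types, most of these genes were stromal. Igf1, Fgf7 and Fgf10 had no row in any of the 8 goblet cell and organoid tables. In the goblet cell libraries with a row, Hgf was at 0.34 to 0.76 CPM, against 62.8 to 332 CPM in stroma, and Igf2 at up to 1.01 CPM, against 15.0 to 102 CPM. Fgf2 was at 0.53 to 2.56 CPM and Fgf9 at 0.70 to 2.48 CPM in the 12 goblet libraries, against 29.3 to 99.0 and 8.58 to 46.2 CPM in stroma, without overlap. For 2 members the cell types overlapped, and the share of all genes whose cell types overlap was not counted. Fgf1 was at 17.0 to 50.1 CPM (median 35.1) in goblet cells and 9.79 to 62.6 CPM in organoids, against 8.27 to 33.6 CPM (median 16) in stroma. Fgf18 was at 0.125 to 1.02 CPM in the 4 goblet libraries with a row and at 0.432 to 8.01 CPM in stroma. Fibroblast markers summed to 5.94 to 33.2 CPM in the goblet libraries, over the 2 to 7 of 9 listed genes with a row. Among them Pdgfrb was at 3.42 to 20.2 CPM and Pdgfra at up to 0.67 CPM.

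**Figure D4:**
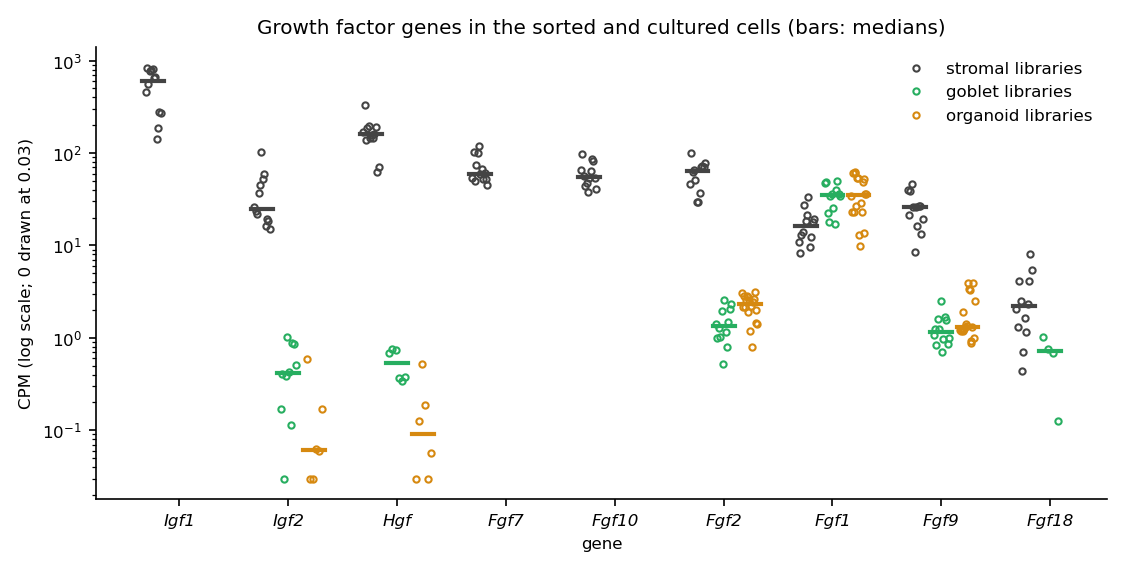
Level of each growth factor gene in CPM (log axis, values of 0 drawn at 0.03) in stromal, goblet and organoid libraries that have a row for it; circles are labelled libraries, of which 2 organoid controls are drawn under both of their time labels, and bars medians. The 3 cell types overlap for Fgf1 and stroma and goblet cells for Fgf18, while for Hgf, Igf2, Fgf2 and Fgf9 every stromal library lies above every goblet and organoid library. How many of all genes separate in this way was not counted.

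In goblet cells of mice with the stromal deletions, 0 of the 3 or 4 members that passed the filter on low values were called by limma in any of the 4 comparisons, where 0.325% (GS4M2 proximal), 0% (GS4M2 distal), 0.0899% (GA3M2 proximal) and 0% (GA3M2 distal) of all genes were. At an unadjusted p under 0.05 and the same size also 0 were, where 4.28%, 2.7%, 6.83% and 4.12% of all genes were in the same order, and edgeR and DESeq2 called 0. Fgf1 was at 620 and 594 normalized counts in control and 415 and 287 in GS4M2 proximal libraries (-0.81, SE 0.19, adjusted p = 0.142). In the GA3M2 table it was at 660 and 628 in control and 412 and 344 in proximal knockout libraries (-0.77, SE 0.19, adjusted p = 0.214). The groups did not overlap in either proximal comparison, as for 50.2% and 52.1% of all genes tested, and both share the 2 control libraries. In distal goblet cells Fgf1 had -0.43 (adjusted p = 0.469) for GS4M2, where the groups did not overlap (45.7% of all genes tested), and 0.04 (adjusted p = 0.944) for GA3M2. The other members tested in goblet cells lay under 45 normalized counts and had adjusted p of at least 0.368.

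In the organoids 3 members passed the filter, Fgf1, Fgf2 and Fgf9. Since 2 of the 3 controls at each time carry both time labels, culture time and treatment cannot be told apart in these comparisons. At 12 h none was called, where 0.0542% (IL-1) and 0.0385% (IL-17A) of all genes were, nor at an unadjusted p under 0.05 (0.922% and 1.08%) or with edgeR or DESeq2, and their log2 fold changes lay between -0.19 and 0.28. Replicates 3 and 4 at 12 h were also close to each other with IL-17A and with IL-1 (chi-square per degree of freedom 3.32 and 3.03), and with each pair averaged, a choice made after seeing the data, the genes called changed from 5 to 2 and from 7 to 0. After 72 h with IL-17A, Fgf9 was at 17.7, 28.4 and 18.6 normalized counts in control and 73.9, 52.7 and 68.0 in treated libraries. It rose by 1.56 on the log2 scale (SE 0.36, adjusted p = 0.0462), the 1 member of 3 called, where 7.94% of 13073 genes were called (5.02% higher), 1038 genes that became 3 to 3577 with 1 library left out. The groups did not overlap, as for 45.3% of all genes. The fibroblast markers with a row summed to 9.04 to 18.7 CPM in control and 14.4 to 61.8 CPM in IL-17A libraries. Most of this sum was Pdgfrb, at 5.05 to 60.4 CPM over the organoid libraries, while Vim was at 0.73 to 3.93 CPM. Where they had a row, Pdgfra and Col1a1 were at most at 0.31 and 0.69 CPM. The part of these markers in the result was not tested. After 72 h with IL-1, where 23% of 13023 genes were called, Fgf9 was at 74.6, 16.9 and 48.3 in treated libraries, which overlapped the control (0.87, SE 0.57, adjusted p = 0.259); no member was called there by limma, edgeR or DESeq2 or at an unadjusted p under 0.05 (25.8% of genes), and without IL-1 replicate 2, the low library, Fgf9 passed (1.46, adjusted p = 0.0368). Fgf1 was at 347, 938 and 895 in control and 245, 153 and 591 after IL-17A (-1.23, SE 0.58, adjusted p = 0.158), with a wide spread within both groups, and Fgf2 had -0.67 (adjusted p = 0.258). The Fgf9 call was kept without IL-17A replicate 2 (1.70, adjusted p = 0.0157) and lost without any other of the 6 libraries (1.44 to 1.77, adjusted p 0.0780 to 0.170). Control replicates 2 and 4 at 72 h differed less than other pairs of that group (chi-square per degree of freedom 3.30, against 63.1 and 67.6), but by more than sampling noise, and with them averaged as 1 library, a choice made after seeing the data, Fgf9 had 1.61 (adjusted p = 0.164) and 2 genes were called in all. With the 2 controls that carry both time labels left out, also chosen after seeing the data, 1 control remained, assumed to vary like the treated libraries, and Fgf9 had 1.15 (SE 0.59, adjusted p = 0.458), with 4 genes called in all.

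**Figure D5:**
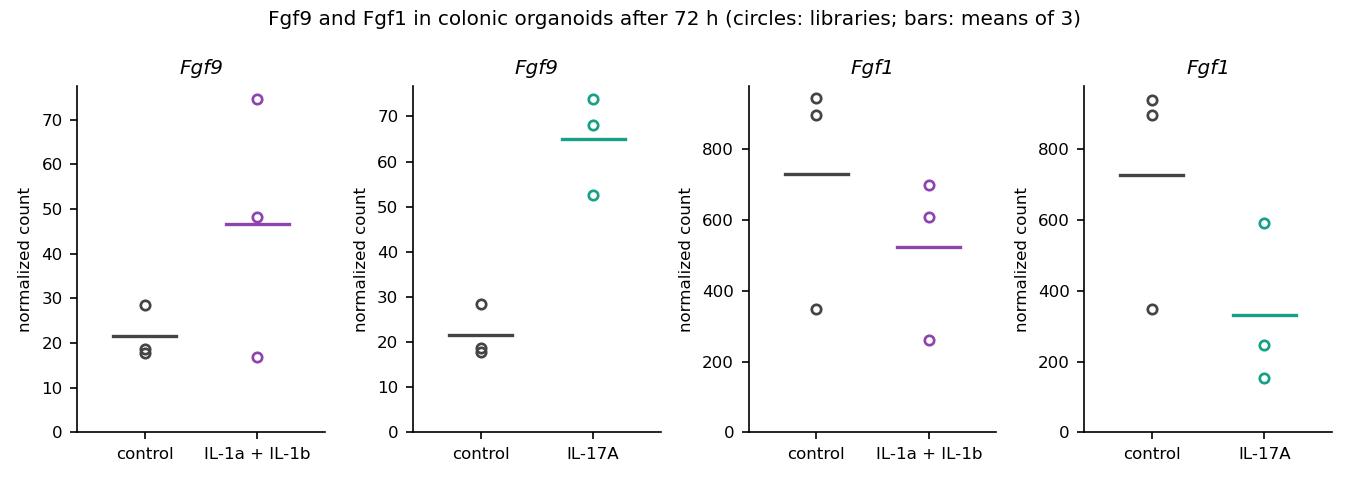
Normalized counts (linear axes from 0) of Fgf9 and Fgf1 in organoids after 72 h without or with IL-1 (IL-1a and IL-1b) or IL-17A; circles are libraries and bars the means of 3, and the control libraries are the same in both tables, 2 of them holding the reads of controls labelled 12 h. The 3 IL-17A libraries lie at 52.7 to 73.9 for Fgf9, above all controls, while Fgf1 values overlap.

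For the 6 members whose level ranged over at least 2 on the log2 CPM scale, the 14432 genes with a mean of at least 1 CPM were searched for the 3 with the most similar pattern over the 12 stromal libraries, measured as the root mean square difference of centered log2 values. Nearest to Igf1 were Ect2 (0.32), Traf3ip3 (0.32) and Dsn1 (0.34), and to Igf2 2310030G06Rik (0.31), Alad (0.32) and Trf (0.33). Nearest to Hgf were Rdh10 (0.21), Ednra (0.23) and Akap7 (0.24), to Fgf9 Pdlim3 (0.26), Ccdc3 (0.30) and Ppfia4 (0.35), and to Fgf1 Des (0.28), a muscle filament gene, Enox1 (0.31) and Zfp970 (0.31). Fgf18 was followed by Mettl7a1 (0.30), Abca8b (0.33) and Abca8a (0.35). These are descriptions over libraries of 6 groups, with no test, and levels shared by a group weigh in them.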

How the data were processed

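The authors checked reads with FastQC, kept unique matches to mm10 from STAR 2.5.3 and divided gene counts by DESeq2 1.28.1 size factors, both tools also named in the submitters' processing notes; the counting program, annotation and strand setting are not given in the sources used here. The deposited values are a normalized signal per gene, counts divided by 1 size factor per library within each of 12 tables. Whole reads were recovered by dividing each column by its step (100% of values within 0.1 of a whole read) and gave depth and CPM. Goblet libraries held 15647603 to 20783127 and organoid libraries 14815170 to 17665812 reads on genes. Rows without a gene name, up to 28.2% of reads in both GS4M2 tables, were left out. Control columns that stand in 2 tables under 1 name hold the same libraries, and 2 organoid controls stand under both a 12 h and a 72 h label with the same reads; both were kept under each label, and fits without them were added after seeing the data.

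Each table was fitted alone with limma 3.58.1 (R 4.3.3) with a trend on log2(value + 1), genes with a mean of at least 10, and a call required both an adjusted p (Benjamini-Hochberg) under 0.05 and a log2 size of 1 or more. The variance of each gene was drawn toward a trend with level over all genes tested. Segments of controls were compared on log2(CPM + 0.05) with a mean of at least 0.5 CPM, and differences between segments as interactions over both tables. Fold changes on these scales understate those of low genes. The alternatives were pseudocounts of 0.1 and 10, no filter, a filter of 50, a replicate block, edgeR 4.0.16, DESeq2 1.42.0 (both on recovered reads), unadjusted p, 1 fit of the 12 stromal libraries and each library left out. The fits were also run on simulated reads with known changes above the required size and a single spread set for all genes. That run does not show how the fits do near the required size or at the spread of these libraries. All 9 members are reported. Of each of 8 companion lists at most the 3 called genes with the largest change are named, with Stc2 given in addition. The patterns most like a member are named by a fixed distance. Members and lists were chosen with earlier results of these data known. Gene lengths are exon bases of GENCODE M21 on GRCm38.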

Additional observations from a re-analysis of the deposited data

Results flagged for a closer look

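For 4 genes the effect of a knockout differed between the proximal and the distal colon by a log2 size of at least 1 with an unadjusted p under 0.05 (limma, interaction over 8 libraries), and none of the 4 passed after adjustment. In GS4T cells the log2 fold change, proximal minus distal, differed by -1.10 for Igf1 (SE 0.20, adjusted p = 0.1), by 1.22 for Hgf (SE 0.22, adjusted p = 0.1) and by 1.2803 for Fgf10 (SE 0.26, adjusted p = 0.123). In GA3T cells it differed by 1.299 for Fgf9 (SE 0.40, adjusted p = 0.575).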

How the results depend on the processing

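Of 1165 values of the growth factor genes under an alternative, 1108 stayed called or stayed uncalled, 28 lost a call and 29 gained one. Most of the 1165 belong to results without a call in the main fit, so the 28 are a larger part of the called ones. No called value changed sign, and 59 values without a call did. Members called in GA3T proximal cells, 0, became 3 at an unadjusted p, 3 with DESeq2, 2 with the replicate block and 2 in 1 fit of the 12 stromal libraries, and in GA3T distal cells 0 became 1 in each of these 4. After IL-17A for 72 h, 1 became 0 with a filter at a mean of 50, which leaves Fgf9 untested, 0 with the replicate block, 0 with near-identical libraries averaged and 0 with the controls of 2 time labels left out; the last 2 were chosen after seeing the data. At an unadjusted p, 2 passed between control segments, where 979 of 15413 genes did. For the segment difference of the Smad4 and the Alk3 effect 3 and 1 passed, where 5.06% and 3.13% of genes did. With 1 replicate left out, the members called ranged from 0 to 5 (GS4T proximal), 1 to 6 (GS4T distal), 0 to 2 (GA3T proximal), 0 to 1 (GA3T distal), 0 to 1 (IL-1, 72 h), 0 to 1 (IL-17A, 72 h) and 0 to 0 (control segments).

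All genes called moved more: in GS4T proximal cells from 1472 to 2446 unadjusted and 119 to 2154 with 1 library left out, and in GS4T distal cells from 2130 to as few as 1194. In GA3T proximal cells the 55 became 0 with edgeR, 969 with DESeq2, 253 with the block, 690 in 1 fit, 6 with a pseudocount of 0.1 and 87 with 10; in GA3T distal cells the 0 became 776 with DESeq2, 62 with the block, 69 in 1 fit and 11 with a pseudocount of 10. Between control segments the 356 became 644 with DESeq2 and 0 to 12 with 1 library left out, and after IL-17A for 72 h the 1038 became 2309 with DESeq2 4 with the block, 2 with near-identical libraries averaged, 4 without the controls of 2 time labels and 3 to 3577 with 1 library left out. In goblet cells DESeq2 called 270 and 147 genes for GS4M2 and 431 and 240 for GA3M2, and the block 260, 0, 699 and 4, in proximal and distal order. The labels do not say what a replicate number marks. Same-numbered libraries correlated by 0.0965 to 0.191 in stroma and -0.0573 to 0.302 in goblet cells. With 2 libraries per group both pairs of a comparison give the same value there. In organoids the range was 0.619 to 0.637 at 12 h and -0.186 to 0.200 at 72 h, with 2 pairs per comparison. The highest value with another number at 12 h was 0.625 (IL-1) and 0.642 (IL-17A) for control replicate 4. For control replicate 1 it was -0.503 and -0.502. At 72 h it was -0.0322 to 0.223. With the block the genes called at 12 h went from 7 to 100 (IL-1) and from 5 to 120 (IL-17A), with 0 members among them. With 2 libraries per group and wide spread in GA3T, smaller differences could not be detected, and Fgf18 rests on counts near 10 in GS4T distal cells.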
